A study of Homo sapiens with 8 samples.

Results

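The 34 genes described here belong to cholesterol synthesis, fatty acid synthesis and desaturation, and lipid uptake, and were taken from a fixed list of symbols. That list was chosen with earlier results of these data known. They comprise 16 genes of sterol synthesis, 4 of sterol control and transport, 7 of fatty acid synthesis and desaturation, 3 of fatty acid activation and 4 of lipid uptake. Of the 34, 33 had a transcript in the deposited files that matched the annotation, and all 33 passed the filter on low counts, among 14653 genes tested and 33791 genes with a matched transcript. *ACACA*, which encodes acetyl-CoA carboxylase, was the member without a match and was not analysed here.

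The libraries came from PNT2, human prostate epithelial cells that were immortalized, with a replicate A and a replicate B in each of 4 groups. These were the parental cells (WT), a line labelled *ERF* KD, a line labelled *CIC* KO, and cells with both losses, whose label reads CIC-ERF codeletion (*ERF* KD + *CIC* KO, called the combined line). By the methods of the study, *ERF* was silenced with short hairpin RNA under puromycin selection and *CIC* was disrupted with guide RNA under blasticidin selection, in lines derived from the same parental cells and grown in DMEM with fetal bovine serum. More than one hairpin and more than one guide were used, and the methods give the same hairpin with different guides for the cells with both losses. Neither the labels nor the methods say which hairpin or guide a replicate letter stands for, or whether the letters are separate cultures. The p-values therefore measure the spread between these libraries, which may be technical.

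The labels of the single-loss groups were at odds with the data. *ERF* stood at 55.8 and 55.9 CPM (counts scaled to a common library size) in WT, 81.2 and 77.8 in libraries labelled *ERF* KD, 18.8 and 11.7 in libraries labelled *CIC* KO, and 11.6 and 10.4 in the combined line. The *CIC* KO label thus went with low *ERF* mRNA and the *ERF* KD label did not, and the file names of these 4 libraries have the letters the other way round. *CIC* mRNA, which a guide RNA need not change, was between 66.4 and 132 CPM in the 8 libraries. The labels were kept, and any direction drawn from a single-loss group rests on them.

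Library totals ran from 19477473 to 25813157 estimated counts. The 10 prostate epithelial markers summed to between 4688 and 5586 CPM in WT and to between 1828 and 2285 CPM in libraries labelled *ERF* KD. In those libraries 8 of 9 tested epithelial markers fell, and of 9 tested mesenchymal markers 6 rose and 1 fell (edgeR's quasi-likelihood test). Of all genes tested, 10.1% passed there. The mesenchymal sum of those libraries, 3476 to 4258 CPM, lay within the WT range. In the other lines the epithelial sum stayed between 4765 and 5996 CPM. The mesenchymal sum was 2208 to 3061 CPM in the combined line, below the 3254 to 4271 CPM of WT, and *ZEB1* and *FN1* were lower there in a fit blocked by replicate letter (0 of 9 passed without the block). The part of these shifts in the lipid results was not tested. The luminal secretory markers *KLK3* and *MSMB* were at 0 in every library. Of markers of cell types that are rich in *LPL* or *CD36*, the 6 adipocyte markers summed to between 0.902 and 2.51 CPM, with *ADIPOQ*, *FABP4*, *CIDEC* and *LEP* at 0 to 0.465 CPM, and *PLIN4* carried most of the sum. The adipocyte sum was lowest in the combined line (0.902 to 1.02 CPM, against 1.73 to 2.51 in the other groups), where *LPL* was lowest too, and *PLIN4*, the 1 adipocyte marker tested, stood there at 15 and 14 counts, with a log2 fold change against WT of -1.21 (SE 0.420, adjusted p = 0.288). Of 6 macrophage markers, which summed to between 29.2 and 66.2 CPM, *MRC1* was at 0 throughout and *CD68* ran from 5.54 to 51.8 CPM. Of the 4 tested, 1 fell by 3.23 on the log2 scale in libraries labelled *ERF* KD against WT, and 1 was higher in the combined line than there. The 5 endothelial markers summed to 9.94 to 14.1 CPM in WT and 4.72 to 16.5 in libraries labelled *ERF* KD. They reached 9.72 to 37.4 CPM in libraries labelled *CIC* KO and 17.0 to 68.7 in the combined line. Of these 5, 0 passed against WT, and 1 rose in the combined line with the block.

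Cells obtain cholesterol by making it from acetyl-CoA through the mevalonate pathway or by taking up lipoproteins, and obtain fatty acids by synthesis from citrate or by releasing them from lipoproteins with lipoprotein lipase. Both supplies are governed by the SREBP transcription factors, encoded by *SREBF1* and *SREBF2*. These are held in the endoplasmic reticulum by INSIG proteins when sterols are plentiful and travel to the nucleus when sterols fall, where they raise genes of both pathways together with partner factors such as NF-Y. Prostate epithelium and its tumours are known for active lipid synthesis, which androgens drive further. CIC and ERF are both transcriptional repressors, and ERF belongs to the ETS family.

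Promoters are shown for 5 of the 8 members that passed as lower in replicate B than in replicate A, a result described below. They are the 4 genes of sterol control and transport and *SCD*, which had the next largest difference to *SREBF1*. Of the 34 members, 29 had a promoter entry in RefSeq (GRCh38.p14), which covers 250 bases before to 50 bases after a start site. Capitals mark the NF-Y motif (CCAAT, or ATTGG where it lies on the other strand) and the SREBP motif (TCACNCCAC, both strands searched). Each is read 5′ to 3′ on the strand of the gene. *SREBF1* lies at chr17:17836937-17837236 on the minus strand, *SREBF2* at chr22:41832855-41833154 on the plus strand, *INSIG1* at chr7:155297628-155297927 on the plus strand, *STARD4* at chr5:111512486-111512785 on the minus strand and *SCD* at chr10:100346983-100347282 on the plus strand.
SREBF1: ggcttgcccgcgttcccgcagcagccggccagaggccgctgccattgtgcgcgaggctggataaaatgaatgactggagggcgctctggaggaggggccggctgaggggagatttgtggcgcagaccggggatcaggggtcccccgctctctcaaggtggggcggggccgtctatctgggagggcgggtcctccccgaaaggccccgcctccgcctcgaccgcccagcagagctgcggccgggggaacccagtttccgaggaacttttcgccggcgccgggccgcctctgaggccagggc
SREBF2: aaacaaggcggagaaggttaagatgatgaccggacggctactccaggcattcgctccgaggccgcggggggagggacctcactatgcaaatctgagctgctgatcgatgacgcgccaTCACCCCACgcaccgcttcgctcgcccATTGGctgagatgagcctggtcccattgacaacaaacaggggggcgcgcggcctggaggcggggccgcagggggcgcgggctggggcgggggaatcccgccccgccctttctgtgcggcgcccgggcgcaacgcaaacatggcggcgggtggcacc
INSIG1: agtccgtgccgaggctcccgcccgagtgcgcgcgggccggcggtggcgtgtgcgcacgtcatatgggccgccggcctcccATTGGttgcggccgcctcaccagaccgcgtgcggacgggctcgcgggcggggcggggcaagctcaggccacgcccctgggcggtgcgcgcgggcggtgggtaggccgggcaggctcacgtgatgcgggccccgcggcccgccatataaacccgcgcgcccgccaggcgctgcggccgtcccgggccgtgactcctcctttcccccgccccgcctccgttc
STARD4: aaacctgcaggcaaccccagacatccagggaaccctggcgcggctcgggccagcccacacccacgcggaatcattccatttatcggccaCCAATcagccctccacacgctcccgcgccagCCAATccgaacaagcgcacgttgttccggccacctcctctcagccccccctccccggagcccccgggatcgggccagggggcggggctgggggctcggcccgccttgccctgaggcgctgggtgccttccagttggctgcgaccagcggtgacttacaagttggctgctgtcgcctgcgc
SCD: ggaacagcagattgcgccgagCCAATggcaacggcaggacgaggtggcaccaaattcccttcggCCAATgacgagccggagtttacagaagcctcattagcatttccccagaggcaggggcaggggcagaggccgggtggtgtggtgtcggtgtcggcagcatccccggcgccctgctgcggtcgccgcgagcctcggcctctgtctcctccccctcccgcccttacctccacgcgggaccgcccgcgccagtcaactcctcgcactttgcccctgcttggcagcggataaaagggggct
These windows hold 1 NF-Y motif each in *SREBF2* and *INSIG1* and 2 each in *STARD4* and *SCD*, and 1 SREBP motif, in *SREBF2*, while the *SREBF1* window holds neither.

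Over the members with a promoter entry, the NF-Y motif was present for 22 of 29 genes, against 39.7% of the 27305 genes with an entry. Some members have several start sites and so several windows, which raises the chance of a match. The SREBP motif was found for 2 of 29, *SREBF2* and *ACSL1*, against 1.39% of all genes. The ETS motif CCGGAAG was found for *IDI1*, *FDPS* and *CYP51A1*, that is 3 of 29, against 12.2% of all genes. The 4 spellings of the CIC motif that were searched (TGAATGAA, TGAATAAA, TCAATGAA and TCAATAAA) were found for 0 of 29, against 5.53% of all genes. A match is a description of letters, and the absence of one says only that these letters are not in this window. *LPL* is not among the 29 genes and was not searched.

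In WT, transcripts of both pathways were abundant and those of the uptake genes spanned the widest range. Levels between genes are given in TPM, a length-corrected relative abundance. *FDPS*, which makes farnesyl diphosphate, had the highest mean (294 ± 36.2 TPM, SD, n = 2), followed by the stearoyl-CoA desaturase *SCD* (223 ± 82.2), *DHCR7*, a reductase of the final step to cholesterol (214 ± 3.27), and the acyl-CoA synthetase *ACSL3* (153 ± 20.3). The spread of *SCD* overlaps those of *FDPS* and *DHCR7*, so that its place in the order is not resolved, while *FDPS* was above *DHCR7* in both WT libraries. At the other end were the very-low-density lipoprotein receptor *VLDLR* (16.9 ± 0.438), the sterol carrier *STARD4* (15.2 ± 2.97), *LPL* (4.60 ± 0.762) and the scavenger receptor *CD36* (0.297 ± 0.104). *ELOVL6*, a fatty acid elongase, came next after *ACSL3* in TPM, with most of its TPM given to 1 short processed transcript, at 83.7 and 104.8 TPM in WT, while its main coding transcript had 18.8 and 17.0. The 8 *FDPS* pseudogenes in the annotation are near copies that can share reads with it.

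**Figure D1:**
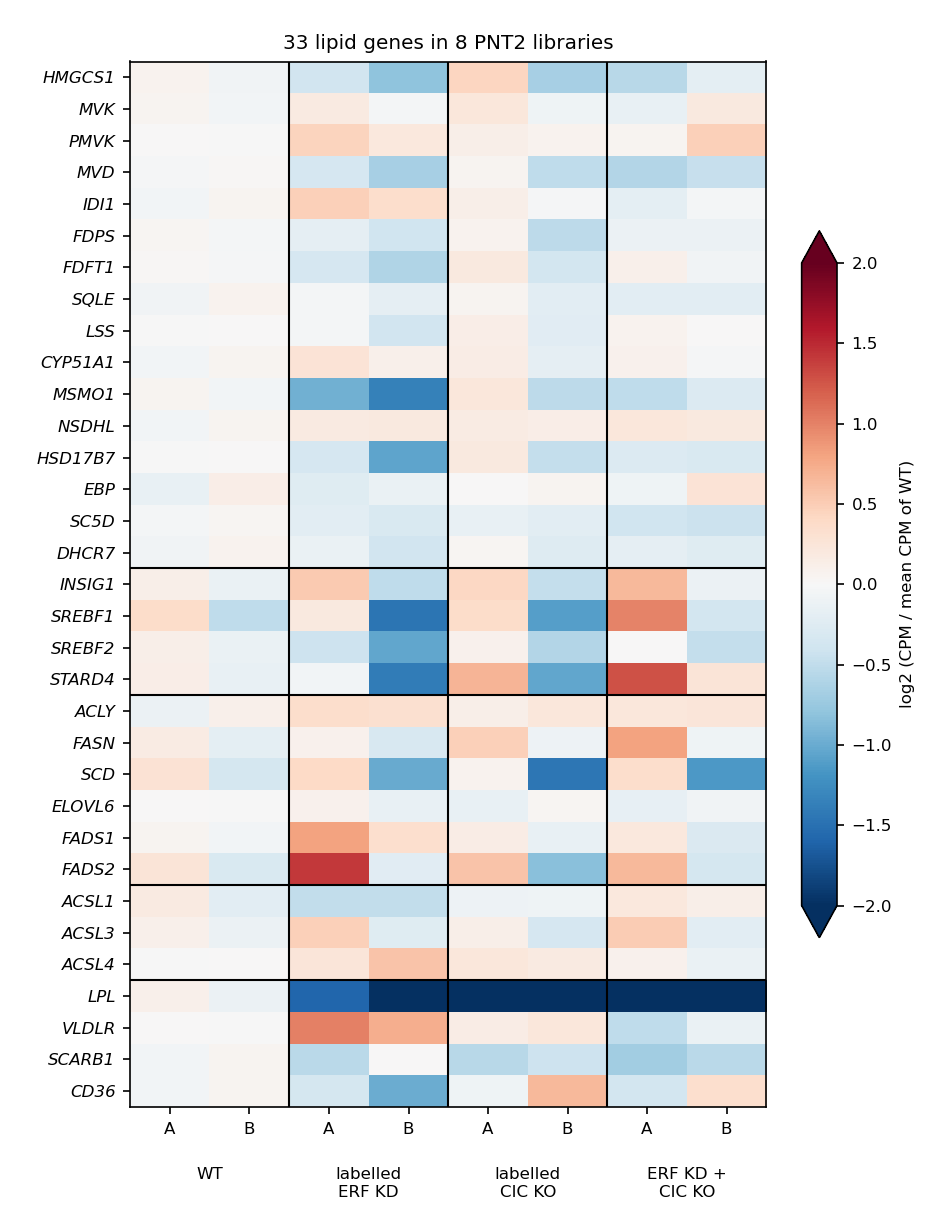
Each row is 1 of 33 lipid genes and each column 1 of 8 libraries, and colour gives the log2 ratio of its CPM to the mean CPM of the 2 WT libraries, with the scale ending at -2 and 2. *LPL* is blue in all 6 libraries of the altered lines, and *VLDLR* is darkest red in both libraries labelled *ERF* KD. *SREBF1*, *SCD*, *FADS2* and *STARD4* lie further towards blue in replicate B than in replicate A of the same group.

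Among the uptake genes, *LPL*, which encodes the secreted lipase that frees fatty acids from lipoproteins, was lower in every altered line than in WT. *LPL* had 12.2 and 10.5 CPM in WT, 3.79 and 1.99 in libraries labelled *ERF* KD, 1.81 and 1.97 in libraries labelled *CIC* KO, and 0.847 and 1.297 in the combined line. The WT libraries stood above the other 6 without overlap, and both libraries labelled *ERF* KD lay above both labelled *CIC* KO, by a margin as small as 1.99 against 1.97 CPM. These levels correspond to 256 and 206 counts in WT and to 20 and 23 counts in the combined line, so each lay above the detection floor of 3 counts.

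Compared to WT, *LPL* fell by 1.97 on the log2 scale in libraries labelled *ERF* KD (SE 0.374, adjusted p = 0.0139, Benjamini-Hochberg adjustment, quasi-likelihood test of edgeR), that is to 0.256 of the WT level. It fell by 3.41 in the combined line (SE 0.408, adjusted p = 0.0430), to 0.0940 of the WT level. In the libraries labelled *CIC* KO its log2 fold change was -2.58 (SE 0.386), which missed the threshold across all genes tested (unadjusted p = 0.000135, adjusted p = 0.353), although both libraries lay below both WT libraries. With DESeq2 the same difference had an adjusted p of 3.52e-05, with no filter on low counts 3.02e-07, and with the replicate letter as a block 0.116. On the TPM scale the decrease in the combined line did not pass (log2 value -2.65 and adjusted p = 0.132 with limma and a pseudocount of 0.1), and leaving out any 1 library of WT, *CIC* KO or the combined line raised its adjusted p to between 0.0609 and 0.355, with log2 values from -3.73 to -3.12. The decrease in libraries labelled *ERF* KD likewise did not pass without WT replicate A (adjusted p = 0.0933), WT replicate B (0.0584) or *ERF* KD replicate B (0.0581). In RNA from whole cultures, fewer cells that express a gene and less RNA per cell cannot be told apart. Between the combined line and the libraries labelled *ERF* KD, *LPL* differed by -1.44 (SE 0.402), with an adjusted p of 0.0544, or of 0.0376 when the letter was a block. The log2 ratio was -2.1 within replicate A and -0.597 within replicate B, so most of this difference lay in replicate A.

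In 7 of 8 libraries the whole *LPL* abundance belonged to 1 coding transcript, LPL-201. It had 5.14 and 4.06 TPM in WT, 1.55 and 0.768 in libraries labelled *ERF* KD, 0.745 and 0.728 in libraries labelled *CIC* KO, and 0.290 and 0.489 in the combined line. In replicate A of the combined line, 3 further coding transcripts, listed at 0 in the other 7 libraries, carried 0.291, 0.185 and 0.0719 TPM. These values rested on 1.93, 0.944 and 0.394 estimated counts, each under the detection floor of 3 counts. LPL-201 had 16.7 estimated counts there but 34.6% of the gene's TPM, so most of that TPM came from few reads. The TPM-scale result of the combined line given above includes them. *LPL* spans chromosome 8 from 19901717 to 19967259 on the plus strand in GENCODE release 29 (GRCh38) and shares no exonic bases with another gene there.

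*VLDLR*, a receptor that binds lipoproteins rich in triglyceride, passed against WT in libraries labelled *ERF* KD, with the opposite direction to *LPL*. *VLDLR* had 33.9 CPM in both WT libraries, 68.4 and 56.1 in libraries labelled *ERF* KD, 37.7 and 39.5 in libraries labelled *CIC* KO, and 23.7 and 31.0 in the combined line. The 4 groups did not overlap each other. It rose by 0.88 on the log2 scale in libraries labelled *ERF* KD (SE 0.168, adjusted p = 0.0140, edgeR's quasi-likelihood test) and was lower by 1.19 in the combined line than in these libraries (log2 difference -1.19, SE 0.169, adjusted p = 0.00353). The rise over WT missed the threshold with limma and a pseudocount of 1 TPM (0.64, adjusted p = 0.114) or 0.1 TPM (adjusted p = 0.108) or on length-scaled counts (0.72, adjusted p = 0.0530), nor without WT replicate A (adjusted p = 0.101), WT replicate B (0.0914) or *ERF* KD replicate A (0.0685). The difference between the combined line and the libraries labelled *ERF* KD passed in each setting tried (highest adjusted p 0.0308). *VLDLR* was also higher in libraries labelled *ERF* KD than in libraries labelled *CIC* KO (0.69, SE 0.167, adjusted p = 0.0375), which was lost without either library of WT or of *CIC* KO or without *ERF* KD replicate A (adjusted p from 0.0717 to 0.172), and also on length-scaled counts (0.0731), on both TPM scales (0.131 and 0.123) and with only the groups compared (0.0760).

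The interaction term, which asks whether the change with both losses differs from the sum of the changes with each and does not depend on which single-loss group is which, was -1.38 for *VLDLR* (SE 0.237, adjusted p = 0.0174). It did not pass without either WT library, *CIC* KO replicate B or combined line replicate A (adjusted p from 0.0593 to 0.0795), nor on the TPM scales (0.0942 with a pseudocount of 1 and 0.0853 with 0.1). Its main coding transcript, VLDLR-202, had 11.7 and 11.5 TPM in WT and 23.2 and 17.8 in libraries labelled *ERF* KD. *VLDLR* (chromosome 9, 2621834 to 2660053, plus strand) shares 738 exonic bases with *VLDLR-AS1* on the opposite strand. Strandedness of the counting is not given in the sources used here, so reads within these shared bases may not be separable.

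The other uptake genes did not pass in any comparison. *SCARB1*, the receptor for high-density lipoprotein, had 111 and 119 CPM in WT, 78.7 and 115 in libraries labelled *ERF* KD, 78.3 and 86.2 in libraries labelled *CIC* KO, and 71.0 and 79.1 in the combined line. Both libraries of *CIC* KO and of the combined line lay below both of WT. *CD36*, which takes up fatty acids and oxidized lipoproteins, stayed between 0.248 and 0.770 CPM, or 5 to 16 counts. Its log2 fold change against WT was -0.63 in libraries labelled *ERF* KD (SE 0.636, adjusted p = 0.601), 0.32 in libraries labelled *CIC* KO (SE 0.600, adjusted p = 0.9997) and 0.01 in the combined line (SE 0.622, adjusted p = 0.997), and at this depth no difference was detectable.

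**Figure D2:**
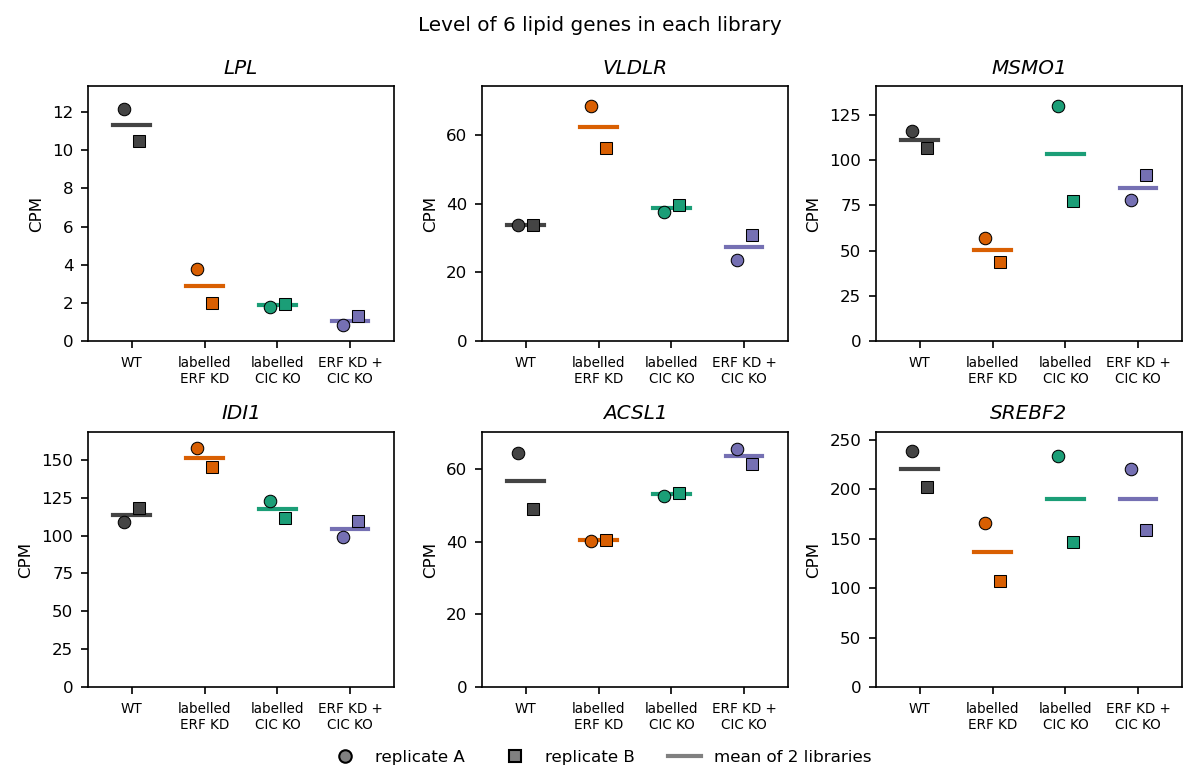
CPM of 6 lipid genes in each library, with replicate A as circles, replicate B as squares and a bar at the mean of the 2 libraries; each vertical axis starts at 0. *LPL* lies at 10.5 CPM or above in WT and at 3.79 or below elsewhere, *VLDLR* is highest and *MSMO1* lowest in libraries labelled *ERF* KD, and *SREBF2* has a lower square than circle in every group.

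Of the 16 sterol synthesis genes, 1 passed the test against WT in any line. *MSMO1*, a methylsterol oxidase that acts after lanosterol, had 116 and 107 CPM in WT, 57.2 and 43.8 in libraries labelled *ERF* KD, 129.7 and 77.2 in libraries labelled *CIC* KO, and 77.8 and 91.6 in the combined line. The libraries labelled *ERF* KD were the lowest and did not overlap any other group. *MSMO1* fell by 1.14 on the log2 scale in them against WT (SE 0.246, adjusted p = 0.0236), and it was lower than in libraries labelled *CIC* KO (log2 difference -1.04, SE 0.246, adjusted p = 0.0347). Without *ERF* KD replicate B the change against WT was -0.96 (adjusted p = 0.120), without WT replicate A -1.08 (adjusted p = 0.111) and without WT replicate B -1.20 (adjusted p = 0.0757). The difference from the libraries labelled *CIC* KO passed without *CIC* KO replicate B and in no other fit that left out 1 library (adjusted p from 0.0529 to 0.161), nor on length-scaled counts (0.0513), on the TPM scales (0.101 and 0.0960) or with only the groups compared (0.0988).

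*IDI1*, which isomerises isopentenyl diphosphate early in the pathway, had its highest values in the same libraries. *IDI1* had 109 and 118 CPM in WT, 157 and 145 in libraries labelled *ERF* KD, 123 and 112 in libraries labelled *CIC* KO, and 99.3 and 109.9 in the combined line. It was lower in the combined line than in libraries labelled *ERF* KD (log2 difference -0.53, SE 0.127, adjusted p = 0.0317), and its difference of 0.42 between the latter and WT (SE 0.127, adjusted p = 0.0783) passed with the replicate block (adjusted p = 0.0399). The former did not pass without any 1 library of WT, *ERF* KD or the combined line (adjusted p from 0.0682 to 0.171), nor on length-scaled counts (0.0559), on the TPM scales (0.0561 and 0.0568) or with only the groups compared (0.0802). The annotation has 643 exonic bases of *IDI1* under *IDI2-AS1* on the opposite strand.

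*FDFT1*, squalene synthase, which commits the pathway to sterols, had 124 and 119 CPM in WT, 96.5 and 80.1 in libraries labelled *ERF* KD, 138 and 94.0 in libraries labelled *CIC* KO, and 129.5 and 115 in the combined line. Its log2 difference from WT in libraries labelled *ERF* KD was -0.46 (SE 0.192), with an adjusted p of 0.184, or of 0.0438 under the replicate block. *FDPS*, the most abundant of the subset, had 197 and 185 CPM in WT, 169 and 145 in libraries labelled *ERF* KD, 199.7 and 133 in libraries labelled *CIC* KO and 176 in both libraries of the combined line, and did not pass in any comparison. The early enzymes *HMGCS1*, *MVK*, *PMVK* and *MVD* and the later *SQLE*, *LSS*, *CYP51A1*, *NSDHL*, *HSD17B7*, *EBP*, *SC5D* and *DHCR7* did not pass either, with log2 fold changes from -0.65 (*HSD17B7*) to 0.33 (*PMVK*) in libraries labelled *ERF* KD. Of the 16 genes, 11 had a negative log2 fold change in these libraries, with a median of -0.23 beside 0.01 over all genes tested. In the libraries labelled *CIC* KO the median was -0.05 and in the combined line it was -0.11. *CYP51A1* shares 2844 exonic bases with *AC000120.2* on the same strand, so part of its counts may not be separable.

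The regulators did not pass against WT without the replicate block. *SREBF2*, which encodes the SREBP that chiefly serves sterol genes, had 239 and 202 CPM in WT, 166 and 107 in libraries labelled *ERF* KD, 234 and 146 in libraries labelled *CIC* KO, and 221 and 159 in the combined line. Both libraries labelled *ERF* KD were below both WT libraries, and the fitted log2 ratio was -0.69 (SE 0.285), with an adjusted p of 0.177, or of 0.00569 under the block. In the libraries labelled *CIC* KO it was -0.22 (SE 0.284, adjusted p = 0.9997) and in the combined line -0.22 (SE 0.284, adjusted p = 0.773).

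*SREBF1*, whose products chiefly serve fatty acid genes, had 116 and 63.1 CPM in WT, 103 and 32.7 in libraries labelled *ERF* KD, 116 and 42.0 in libraries labelled *CIC* KO, and 179 and 69.7 in the combined line. All 4 groups overlapped. The log2 fold change against WT was -0.41 (SE 0.669, adjusted p = 0.763) in libraries labelled *ERF* KD, -0.19 (SE 0.667, adjusted p = 0.9997) in libraries labelled *CIC* KO and 0.47 (SE 0.667, adjusted p = 0.789) in the combined line. The direction in each line turned when 1 library was left out.

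*INSIG1*, the retention factor, had 139 and 118 CPM in WT, 184 and 90.7 in libraries labelled *ERF* KD, 172 and 92.2 in libraries labelled *CIC* KO, and 202 and 119 in the combined line. The groups overlapped, with log2 fold changes against WT of 0.10 (SE 0.401, adjusted p = 0.914), 0.04 (SE 0.401, adjusted p = 0.9997) and 0.32 (SE 0.401, adjusted p = 0.762) in the same order of lines, and these directions also turned without 1 library. *STARD4*, which carries cholesterol between membranes, had 28.6 and 23.4 CPM in WT, 25.02 and 9.88 in libraries labelled *ERF* KD, 41.6 and 12.7 in libraries labelled *CIC* KO, and 62.7 and 31.2 in the combined line. Its libraries of the combined line were above libraries labelled *ERF* KD, a log2 difference of 1.43 (SE 0.602, adjusted p = 0.176, or 0.00802 with the block).

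Against the libraries labelled *ERF* KD, *SREBF1* and *SREBF2* in the combined line also passed only with the block, with log2 differences of 0.93 (SE 0.172, adjusted p = 0.00641) and 0.49 (SE 0.128, adjusted p = 0.0285) in that fit. The interaction term of the blocked fit was 1.24 for *SREBF1* (SE 0.242, adjusted p = 0.0152), 0.74 for *SREBF2* (SE 0.180, adjusted p = 0.0374) and 1.63 for *STARD4* (SE 0.402, adjusted p = 0.0389). Without the block the adjusted p of these 3 terms was 0.654, 0.447 and 0.479.

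Of the 6 fatty acid synthesis and desaturation genes tested, 0 passed between groups without the replicate block, and *FADS1* and *FASN* passed with it. *FADS1*, a desaturase of polyunsaturated fatty acids, had 232 and 217 CPM in WT, 394 and 283 in libraries labelled *ERF* KD, 249 and 202 in libraries labelled *CIC* KO, and 259.6 and 183 in the combined line. The libraries labelled *ERF* KD were above the other 6, with a log2 fold change over WT of 0.59 (SE 0.220, adjusted p = 0.138, or 0.0161 with the block). *FADS1* shares 490 exonic bases with its neighbour *FADS2* on the opposite strand, so part of their counts may not be separable.

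*FASN*, fatty acid synthase, had 500.4 and 389 CPM in WT, 470.0 and 355 in libraries labelled *ERF* KD, 620.3 and 415 in libraries labelled *CIC* KO, and 774 and 417 in the combined line. Its difference between the combined line and the libraries labelled *ERF* KD passed only with the block (log2 value 0.48, SE 0.141, adjusted p = 0.0436), and these groups overlapped. *ACLY*, which supplies cytosolic acetyl-CoA, *ELOVL6* and the desaturase *FADS2* did not pass between any groups, and neither did *SCD*, which had 960.2 and 619 CPM in WT, 1041 and 392 in libraries labelled *ERF* KD, 829 and 291 in libraries labelled *CIC* KO, and 1011 and 357 in the combined line.

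Of the synthetases that activate fatty acids as acyl-CoA, *ACSL1* had 64.5 and 49.0 CPM in WT, 40.3 and 40.5 in libraries labelled *ERF* KD, 52.6 and 53.5 in libraries labelled *CIC* KO, and 65.7 and 61.5 in the combined line. The libraries labelled *ERF* KD were the lowest 2 of the 8. *ACSL1* was higher in the combined line than in them (log2 difference 0.65, SE 0.152, adjusted p = 0.0288), which was lost without any 1 library of either group (adjusted p from 0.0815 to 0.142), on length-scaled counts (0.0601) and on the TPM scales (0.163 and 0.153), and their difference from WT was -0.49 (SE 0.152, adjusted p = 0.0837, or 0.0404 with the block). *ACSL3*, which works at lipid droplets, had 245 and 210.0 CPM in WT, 315 and 193 in libraries labelled *ERF* KD, 245 and 179.9 in libraries labelled *CIC* KO, and 323 and 197 in the combined line. Neither it nor *ACSL4*, which prefers arachidonic acid and ran from 109.7 to 178 CPM, passed between groups.

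**Figure D3:**
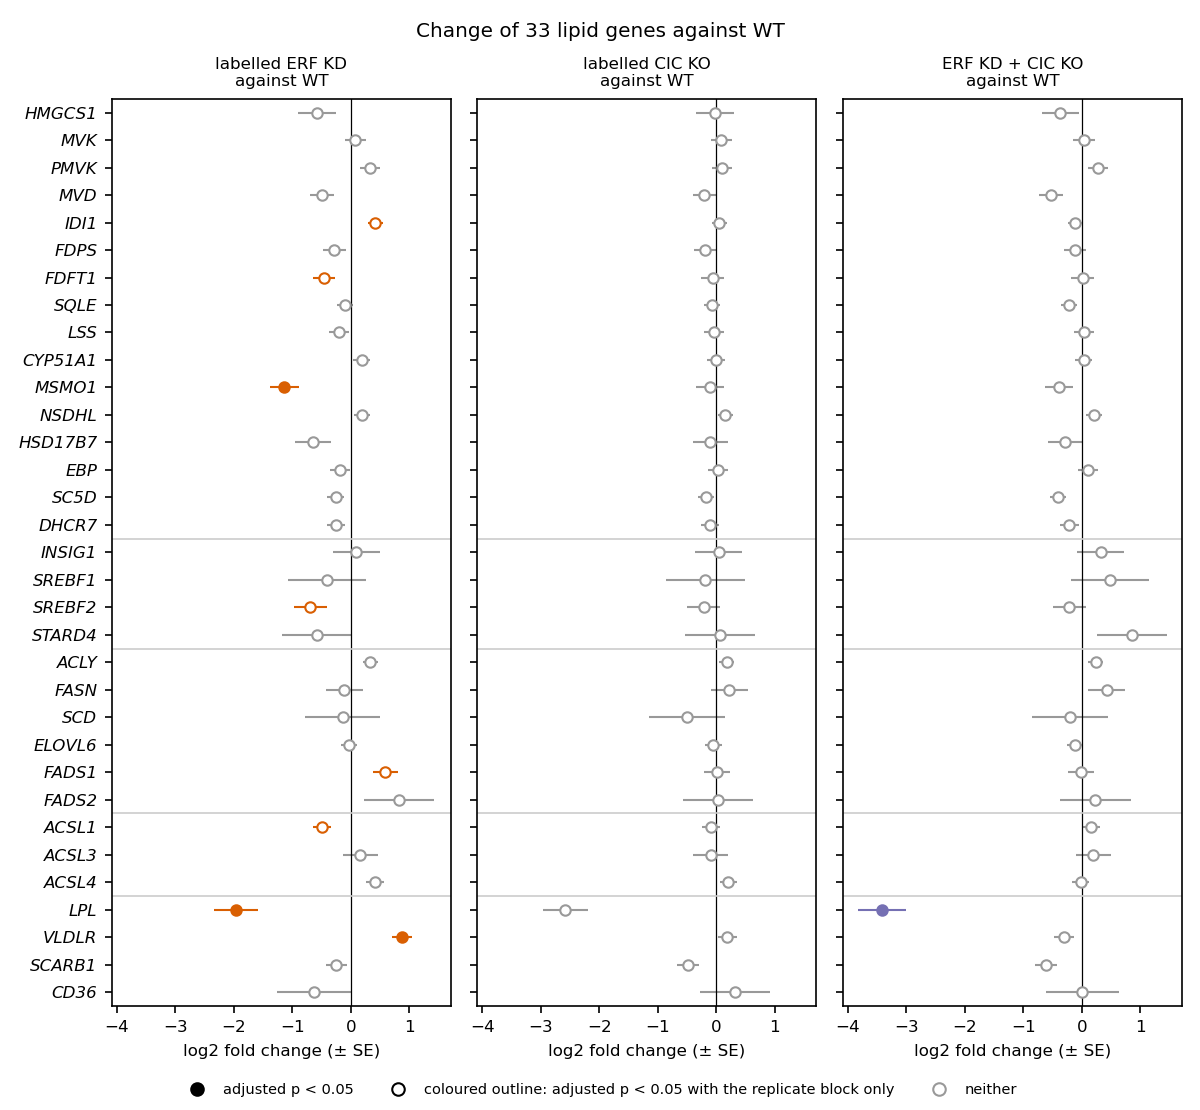
Log2 fold change against WT with its standard error for 33 lipid genes in 3 lines, ordered by role with grey lines between the roles; filled points had an adjusted p under 0.05, open coloured points only with the replicate block. *LPL* has the lowest value in each line (-1.97, -2.58 and -3.41), and most other genes lie within 1 unit of 0.

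Taking the list as a whole, 3 of 33 members passed in libraries labelled *ERF* KD against WT, 1 higher (*VLDLR*) and 2 lower (*LPL* and *MSMO1*), where 10.1% of all genes tested passed. With the replicate block 8 passed (3 higher and 5 lower), where 18.2% of all genes did. In the libraries labelled *CIC* KO 0 of 33 passed, where 0% of all genes did, and 0 with the block, where 0.00682% of all genes passed. There 2 members (*LPL* and *SCARB1*) had an unadjusted p under 0.05, as did 587 of 14653 genes. DESeq2 called 1 member (*LPL*) and 26 of 14653 genes. In the combined line, *LPL* was the 1 member that passed, where 0.0682% of all genes did, and it was again the 1 that passed with the block, where 2.49% did. As the members were chosen with earlier results of these data known, these counts are a description and no test of the list.

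The remaining comparisons were between altered lines. The combined line was set apart from the libraries labelled *ERF* KD in 3 of 33 members (*ACSL1* higher, *IDI1* and *VLDLR* lower), beside 11.7% of all genes, and in 11 with the block, beside 20.6%. Against the libraries labelled *CIC* KO 0 members passed, beside 0% of all genes (0.334% with the block, with 0 members). There 1 member (*VLDLR*) had an unadjusted p under 0.05, as did 1216 of 14653 genes, and DESeq2 called 0 members and 141 of 14653 genes. Libraries with the label *ERF* KD differed from libraries labelled *CIC* KO in 2 members, *VLDLR* higher and *MSMO1* lower, beside 9.4% of all genes, and in 4 with the block, beside 16.5%. The interaction term passed for 1 member, *VLDLR*, beside 4.15% of all genes, and for 5 with the block, beside 9.55%. Members called only with the block and not given above were *FDFT1* (0.47, SE 0.134, adjusted p = 0.0380), *MSMO1* (0.77, SE 0.205, adjusted p = 0.0306) and *FADS1* (-0.61, SE 0.126, adjusted p = 0.0107) in the combined line against libraries labelled *ERF* KD. They were also *SREBF2* (-0.47, SE 0.127, adjusted p = 0.0380) and *FADS1* (0.57, SE 0.126, adjusted p = 0.0164) between the single-loss groups, and *ACSL1* in the interaction (0.74, SE 0.189, adjusted p = 0.0454). These comparisons share groups and are not independent of each other.

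Both libraries lay on the same side of both WT libraries for 21 of 33 members in libraries labelled *ERF* KD (8 above and 13 below), where this held for 56.3% of all genes. It held for 8 members in libraries labelled *CIC* KO, where it held for 32.2% of all genes, and for 17 members in the combined line, where it held for 49.5%. The median log2 fold change of the 33 members was -0.19, -0.04 and -0.02 in the same order, beside 0.01, 0.01 and 0.00 over all genes.

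Among 42 other genes of these pathways, of which 41 were tested, 8 passed in libraries labelled *ERF* KD against WT, where 10.1% of all genes tested passed. The citrate carrier *SLC25A1* rose by 0.82 on the log2 scale (SE 0.156, adjusted p = 0.0142), the fatty acid transporter *SLC27A4* by 0.64 (SE 0.151, adjusted p = 0.0334), *CAV1*, the coat protein of caveolae, by 0.75 (SE 0.140, adjusted p = 0.0127) and the lipid droplet protein *PLIN3* by 0.53 (SE 0.132, adjusted p = 0.0415). The elongase *ELOVL7* fell by 1.09 (SE 0.155, adjusted p = 0.00397), the desaturase *SCD5* by 0.93 (SE 0.166, adjusted p = 0.0105), *DGAT2*, which completes triglycerides, by 1.13 (SE 0.236, adjusted p = 0.0207) and the synthetase *ACSL5* by 1.98 (SE 0.291, adjusted p = 0.00436). By role, 2 of 8 other uptake genes, 3 of 9 tested genes of fatty acid synthesis, 2 of 6 of storage, 1 of 6 of oxidation and 0 of 12 of sterol synthesis and control passed. None of the 41 passed in libraries labelled *CIC* KO or in the combined line against WT in this test, although *SCD5* in the latter passed with the block (-0.89, adjusted p = 0.0283).

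In the combined line against the libraries labelled *ERF* KD, 6 of these 41 genes passed, beside 11.7% of all genes. *DGAT2* was higher by 1.35 (SE 0.236, adjusted p = 0.00867), *ELOVL7* by 1.25 (SE 0.156, adjusted p = 0.00184) and the acetyl-CoA synthetase *ACSS2* by 0.97 (SE 0.203, adjusted p = 0.0193). The mitochondrial carnitine enzymes *CPT1A* and *CPT2* were higher by 0.72 (SE 0.154, adjusted p = 0.0210) and 0.57 (SE 0.152, adjusted p = 0.0478), and *CAV1* was lower (-0.98, SE 0.140, adjusted p = 0.00357). Libraries with the label *ERF* KD differed from libraries labelled *CIC* KO in 7 of the 41, beside 9.4% of all genes, with *CAV1* (0.87) and the sterol reductase and lamin receptor *LBR* (0.49) higher and *ACSL5* (-1.87), *DGAT2* (-1.39), *ELOVL7* (-1.21), *ACSS2* (-0.99) and *CPT2* (-0.62) lower on the log2 scale. The interaction term, called for 4.15% of all genes, passed for *ELOVL7* (1.13, SE 0.217, adjusted p = 0.0264) and *SCD5* (1.21, SE 0.234, adjusted p = 0.0276).

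A further difference ran between the replicate letters and not between the groups, a comparison added after the values had been seen. In the fit that holds group and letter, 8 of 33 members were lower in replicate B than in replicate A, where 2.03% of all genes tested were, and 0 of 33 were higher, where 2.18% were. By role these were 4 of 4 genes of sterol control and transport, 3 of 6 of fatty acid synthesis and desaturation, 1 of 3 of fatty acid activation, 0 of 4 of uptake and 0 of 16 of sterol synthesis. The median over the 33 members was -0.16 on the log2 scale, beside -0.01 over all genes.

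*SREBF1* was lower in B by 1.34 on the log2 scale (log2 difference -1.34, SE 0.123, adjusted p = 0.00351, edgeR's quasi-likelihood test), with log2 ratios of B to A of -0.88 in WT, -1.65 in libraries labelled *ERF* KD, -1.46 in libraries labelled *CIC* KO and -1.36 in the combined line. The ratios for *SCD* were -0.63, -1.41, -1.51 and -1.50 in the same order, with a fitted log2 difference of -1.26 (SE 0.146, adjusted p = 0.00677). *FADS2* had 86.3 and 58.3 CPM in WT, 194 and 61.8 in libraries labelled *ERF* KD, 107 and 40.4 in libraries labelled *CIC* KO, and 113 and 56.6 in the combined line, a fitted difference of -1.16 (SE 0.161, adjusted p = 0.0118). In all 3 genes replicate B was lower in 4 of 4 groups, and the WT ratio was the one closest to 0.

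*STARD4* differed between the letters by -1.08 (SE 0.202, adjusted p = 0.0272), *INSIG1* by -0.73 (SE 0.124, adjusted p = 0.0216), *FASN* by -0.56 (SE 0.10, adjusted p = 0.0244), *ACSL3* by -0.52 (SE 0.0989, adjusted p = 0.0284) and *SREBF2* by -0.51 (SE 0.0902, adjusted p = 0.0244). Each of these 5 genes was also lower in replicate B in 4 of 4 groups. In *SREBF1* the difference was present in the main coding transcript, SREBF1-201, with 31.0 and 14.7 TPM in WT, 27.6 and 8.24 in libraries labelled *ERF* KD, 29.6 and 9.93 in libraries labelled *CIC* KO, and 46.3 and 17.5 in the combined line. *SREBF1* shares 556 exonic bases with *RAI1* on the opposite strand.

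Of the 16 sterol synthesis genes 0 passed between the letters, and 12 had a negative value. Their log2 differences between the letters ran from -0.35 for *HSD17B7* to 0.19 for *EBP*, with a median of -0.12 beside -0.01 over all genes. *FDPS* and *FDFT1* were lower in B in 4 of 4 groups, and *HMGCS1* had log2 ratios of B to A of -0.14, -0.42, -1.10 and 0.36 in WT, the libraries labelled *ERF* KD, libraries labelled *CIC* KO and the combined line. Among the 41 other genes of the pathways, 3 were lower and 3 higher in B. *MYLIP*, a target of liver X receptors that marks lipoprotein receptors for degradation, was lower (-1.67, SE 0.193, adjusted p = 0.00677), as were the lipoprotein receptor *LRP1* (-0.61, SE 0.0974, adjusted p = 0.0188) and *FADS3* (-0.41, SE 0.0890, adjusted p = 0.0433). The endothelial lipase gene *LIPG* was higher (1.31, SE 0.144, adjusted p = 0.00649), as were *ELOVL1* (0.44, SE 0.0780, adjusted p = 0.0234) and the cholesterol esterifying enzyme *SOAT1* (0.48, SE 0.0966, adjusted p = 0.0363).

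The calls between letters depended on which groups were in the fit. Without both libraries labelled *CIC* KO, 0 of 14402 genes passed at all, with 1929 at an unadjusted p under 0.05, and the members' adjusted p ran from 0.0629 for *SREBF1* to 0.161 for *SREBF2*, at log2 differences close to those with all libraries (-1.301 for *SREBF1*, -1.19 for *SCD* and -1.08 for *FADS2*). Without both libraries labelled *ERF* KD 3 members passed, *SREBF1*, *SCD* and *FADS2*, beside 258 of 14438 genes, where 618 of 14653 passed with all libraries. Without both of the combined line *STARD4* (adjusted p = 0.0528) and *ACSL3* (0.0529) were lost, while 621 of 14534 genes passed. On log2(TPM + 0.1) the median of all genes lay at -0.11 for replicate B against A, and 7 of the 8 members passed in their direction there, with *STARD4* at -1.004 (adjusted p = 0.0507). Within the letters, *LPL* in libraries labelled *ERF* KD differed from WT by -1.67 in replicate A and -2.37 in replicate B on the log2 scale. The values were 1.01 and 0.73 for *VLDLR* and -1.02 and -1.28 for *MSMO1*. As these 2 groups do not overlap in these genes, the same sign under both letters was fixed in advance. What the letters stand for was not tested and is not given in the sources used here.

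**Figure D4:**
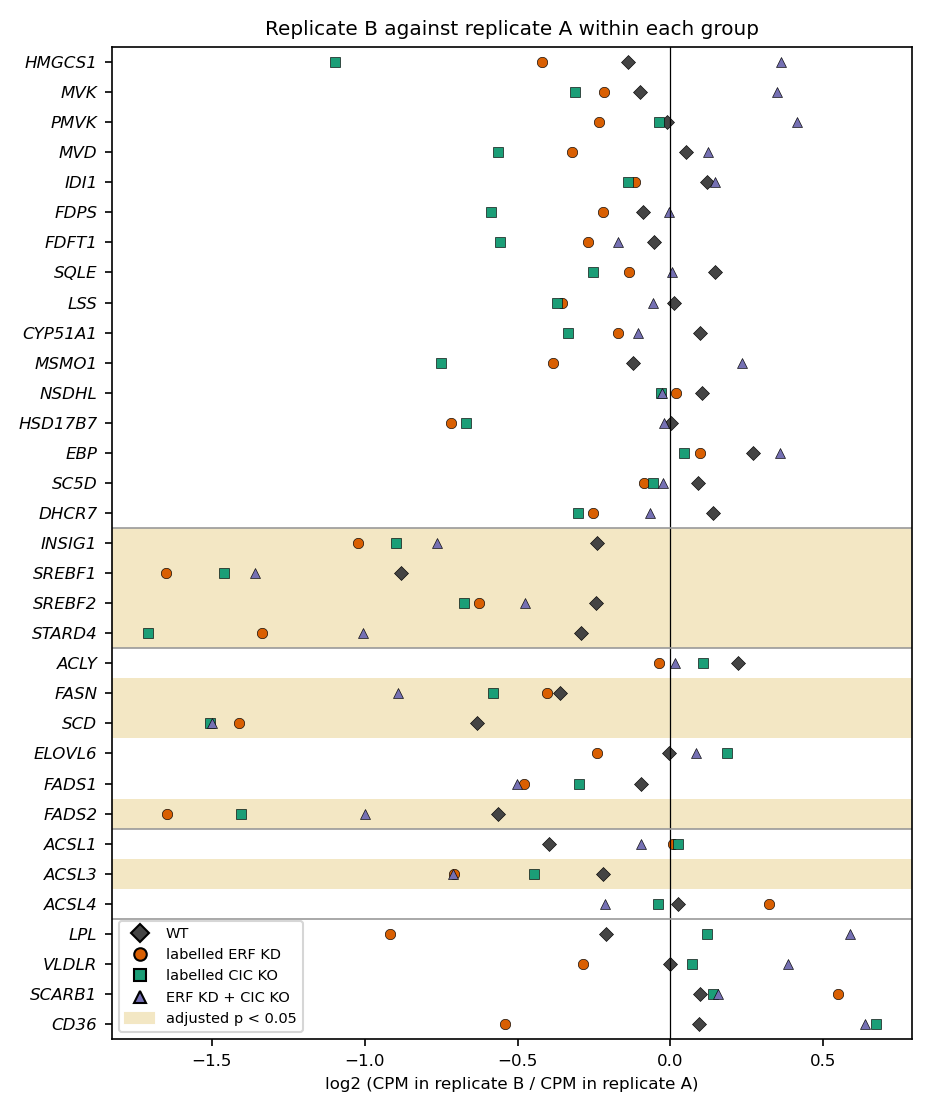
For 33 lipid genes ordered by role, each symbol is the log2 ratio of CPM in replicate B to CPM in replicate A in 1 of 4 groups, and shaded rows are the 8 genes with an adjusted p under 0.05 for the letter. In the shaded rows all 4 symbols lie left of 0, with *SREBF1* from -1.65 to -0.88, whereas the symbols of sterol synthesis genes lie on both sides of 0 for most genes.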

How the data were processed

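RNA-seq of PNT2 cells was analysed in 4 groups of 2 libraries, grouped by the genotype labels. The member genes, the other gene lists and the tests were chosen with earlier results of these data known.

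For each transcript the authors deposited raw estimated counts and TPM, in the column layout of kallisto. Their methods name RSEM 1.3.3 and log2 gene-level values, and the submitters' processing notes name the build hg19. The version of kallisto, the transcript annotation and strandedness are not given in the sources used here. Each file lists 180253 transcripts, of which 153245 (85.0%) matched GENCODE release 29 (GRCh38) by identifier. These carried 93.2% to 93.3% of each library's counts, and the rest were left out. Reads that fit several transcripts were divided by the program, which adds an uncertainty not seen in the replicate spread.

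Estimated counts were summed per gene, rounded and filtered with filterByExpr. TMM factors and the quasi-likelihood test (glmQLFit, glmQLFTest) of edgeR 4.0.16 in R 4.3.3 were used, in 1 fit of the 4 groups, with Benjamini-Hochberg adjustment over 14653 genes and a threshold of 0.05. CPM are TMM-scaled. The test was checked on simulated counts. With 2 libraries a group, 0.333 is the smallest 2-sided p of an exact permutation test, which was therefore not run. A total of 3 counts were taken as the detection floor, for counting error only.

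The letters pair the libraries by the rule used here, since the correlation across genes of the B minus A difference lay between 0.136 and 0.335 for each pair of groups. The biological coefficient of variation was 0.197, or 0.142 with the letter as a block. Rank correlation between replicates was 0.984 to 0.990. Other alternatives were DESeq2 1.42.0, no filter, length-scaled counts, limma 3.58.1 with a pseudocount of 1 or 0.1 TPM on the log2 scale, only the groups compared, and each library left out in turn.

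Printed by rule were the values in every library of members with an adjusted p under 0.05 in any comparison, with or without the block, and of the member of each subset with the highest TPM. Folds were printed for members that passed and, against WT, for *LPL*, *CD36*, *SREBF1*, *SREBF2* and *INSIG1*.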

Additional observations from a re-analysis of the deposited data

Results flagged for a closer look

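The interaction term of *VLDLR* (-1.38 on the log2 scale, edgeR) is listed because its test passed on counts (adjusted p = 0.0174), that is, the change with both losses differed from the sum of the single changes. It did not pass on the TPM scales (0.0942 and 0.0853, limma). Groups of 2 libraries are too small for a search for single libraries that stand apart.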

How the results depend on the processing

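The number of members that passed moved with the fit. Under the label *ERF* KD against WT it was 3, and 7 with no filter on low counts, 8 with the replicate block and 0 to 3 with 1 library left out. Under the label *CIC* KO it was 0, and 1 with DESeq2 or no filter, where 26 of 14653 and 123 of 22195 genes passed. In the combined line it was 1, and 3 with no filter, 0 on length-scaled counts and on both TPM scales, and 0 to 1 with 1 library left out. Against the libraries labelled *ERF* KD it was 3, and 6 with DESeq2, 10 with no filter, 11 with the replicate block, 1 on length-scaled counts and on both TPM scales, and 1 to 4 with 1 library left out. Against those labelled *CIC* KO it was 0, and 1 with no filter, where 426 of 22195 genes passed. Between the single-loss groups it was 2, and 6 with no filter, 4 with the replicate block, 0 on length-scaled counts, on both TPM scales or with only the groups compared, and 0 to 2 with 1 library left out. For the interaction term it was 1, and 4 with no filter, 5 with the replicate block, 0 on both TPM scales and 0 to 1 with 1 library left out. Between the letters it was 8, and 3 without both libraries labelled *ERF* KD and 0 without both labelled *CIC* KO. Over all genes the same fits called 618, 258 and 0. The replicate block changed no call of a member against WT under the label *CIC* KO or for the combined line. The number over all genes also moved. For the label *ERF* KD against WT it was 1477 of 14653, and 2577 of 22195 with no filter and 2671 with the replicate block. In the combined line against WT it was 10, and 768 with no filter, 5 on length-scaled counts, and 1 and 7 on the TPM scales (pseudocounts of 1 and 0.1). Against the libraries labelled *ERF* KD it was 1709, and 2312 with DESeq2, 2798 with no filter, 1246 of 14879 on length-scaled counts, and 1113 and 1186 on the TPM scales. Between the single-loss groups it was 1377, and 2367 with no filter, 1077 on length-scaled counts, 999 and 1000 on the TPM scales, and 829 of 14128 with only the groups compared. For the interaction it was 608, and 1645 with no filter, and 312 and 314 on the TPM scales. The cause of these shifts was not tested.

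Direction reversed only in genes that did not pass. *INSIG1* under the label *ERF* KD went to -0.074 and -0.075 with limma on TPM (pseudocounts of 1 and 0.1), and ran from -0.50 to 0.52 with 1 library left out. Under the label *CIC* KO it went to -0.042 with the replicate block, -0.041 on length-scaled counts and -0.145 and -0.147 on the TPM scales, and ran from -0.482 to 0.416. For the combined line its lowest was -0.116 and its highest 0.654. *SREBF1* ran from -1.451 to 0.198, -1.095 to 0.366 and -0.368 to 1.001 in the same order with 1 library left out, and *SREBF2* from -0.593 to 0.081 under the label *CIC* KO and from -0.479 to 0.005 for the combined line. *CD36* under the label *ERF* KD went to 0.645 on length-scaled counts and 0.13 and 0.182 on the TPM scales. It ran from -0.082 to 0.639 under the label *CIC* KO, and for the combined line from -0.362 to 0.326, with -0.006 with the replicate block and -0.002 with only the groups compared. *CD36*, at 5 to 16 counts, is limited by depth.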
